A study of Homo sapiens with 8 samples.

Results

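The genes described here carry out and control sterol synthesis, uptake and storage. They are 29 named genes: 20 enzymes that lead from acetyl-CoA to cholesterol, 4 genes that control the SREBP transcription factors, and 5 genes that act in lipoprotein uptake, intracellular sterol movement or sterol storage. Each was found by its symbol among 59050 gene symbols in every file, and all 29 passed the filter on low counts that kept 16219 genes. The list follows the pathway but does not hold every gene of it. Members were chosen by pathway role, with the fold changes and calls of this same comparison already known. Fold changes and adjusted p-values of these genes are therefore given as a description, and no test of the list was made.

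RNA was sequenced from xenograft tumours of H2122, a human line derived from lung cancer. In the parental group (genotype WT) there were 4 tumours, and in the other group 4 tumours of cells with a SMARCA4 knockout; all 8 received vehicle. The product of SMARCA4 is one of the motor subunits that let SWI/SNF complexes move nucleosomes. The sources used here do not say whether the knockout cells are a single clone, how old the host animals were, or whether replicate tumours came from separate animals, so the spread between replicates is the spread between these tumours.

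Cholesterol is built in the cytosol and endoplasmic reticulum from acetyl-CoA, through mevalonate, isoprenoid diphosphates, squalene and lanosterol. When sterols in the endoplasmic reticulum are low, SCAP carries SREBP proteins to the Golgi, where they are cut and released to switch on genes of synthesis and uptake; when sterols are plentiful, INSIG proteins hold SCAP back. Cells also take up cholesterol in lipoproteins, free it in lysosomes with NPC1 and NPC2, and store the excess as esters made by SOAT1.

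Because the study compared groups that differ in a chromatin remodeller, the promoter sequences of 4 members that were higher in knockout tumours are shown: SREBF2, which encodes the transcription factor of the pathway, its regulator INSIG1, and MSMO1 and STARD4, the enzyme and the carrier with the largest fold changes. They are from RefSeq on GRCh38.p14, read 5′ to 3′ on the strand of the gene, and stop before the first base that GENCODE 29 places in the gene. Capitals mark TCACNCCAC, the core of a sterol response element, and CCAAT, the NF-Y box, either of them on either strand (CCAAT on the opposite strand reads ATTGG).
SREBF2, chr22:41832855-41833078, plus strand: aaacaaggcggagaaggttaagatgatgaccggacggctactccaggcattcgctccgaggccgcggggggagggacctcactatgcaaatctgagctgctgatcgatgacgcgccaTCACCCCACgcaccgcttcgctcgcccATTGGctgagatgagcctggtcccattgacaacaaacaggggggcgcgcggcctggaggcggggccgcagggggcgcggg
INSIG1, chr7:155297628-155297775, plus strand: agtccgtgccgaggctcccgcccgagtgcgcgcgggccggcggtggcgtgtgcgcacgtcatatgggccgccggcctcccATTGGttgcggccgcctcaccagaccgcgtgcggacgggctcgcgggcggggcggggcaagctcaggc
MSMO1, chr4:165327419-165327622, plus strand: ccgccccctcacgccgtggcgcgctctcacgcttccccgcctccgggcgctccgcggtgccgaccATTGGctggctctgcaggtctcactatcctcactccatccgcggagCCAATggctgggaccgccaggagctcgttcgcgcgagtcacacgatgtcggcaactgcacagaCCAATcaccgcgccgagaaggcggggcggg
STARD4, chr5:111512591-111512785, minus strand: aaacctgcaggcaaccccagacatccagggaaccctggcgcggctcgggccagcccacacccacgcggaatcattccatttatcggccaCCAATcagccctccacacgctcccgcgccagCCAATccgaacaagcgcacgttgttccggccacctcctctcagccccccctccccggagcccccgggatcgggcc

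In SREBF2 the TCACCCCAC match begins 133 bases before the RefSeq start, and an ATTGG begins 106 bases before it. Over the whole list, 26 members had a promoter in the table. TCACNCCAC occurred in the 250 bases before a start in 1 of them, SREBF2, and in 1.17% of the 10990 tested genes with a promoter there. CCAAT occurred in 20 of the 26 members (76.9%), against 41.0% of tested genes and 37.0% of all 27305 genes in the table. It was present in 14 of the 16 members with a promoter that were called higher and in 6 of the 10 that were not called. GGGCGG, the SP1 box, occurred in 24 of the 26 members, against 72.7% of tested genes and 46.2% of all genes in the table. It was present in all 16 members called higher and in 8 of the 10 not called. These splits by call were not tested, and the members were chosen with the calls known. Genes with several starts were counted as matching where any of their windows matched, and a match describes letters in a window, not a bound site. Only exact matches were counted, so nothing is read from a missing match.

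Gene counts totalled 19785922 to 23191698 per library, and counts of the members ran from 162 for CYP51A1 to 7250 for FDPS in a single tumour. SMARCA4 was at 198 to 235 CPM (counts normalised to library size, with TMM scaling) in parental and 22.3 to 31.0 CPM in knockout tumours, so each library was on the side of its label. The epithelial genes EPCAM, KRT7, KRT8, KRT18, KRT19, CDH1 and MUC1 were abundant, whereas of the lung lineage genes NKX2-1 had 0 counts in all 8 tumours and SFTPB had 36 in all. Tumours also differed in signal from genes used as markers of other cell types. The tumours were xenografts and reads were counted on the human build hg38, and whether mouse reads were removed is not given. Signal from host reads and from the human tumour cells cannot be told apart in these sums. Summed over 10 leukocyte markers, all of which were detected, the level was 7.56 to 75.8 CPM in parental and 13.2 to 31.2 CPM in knockout tumours, and over 8 fibroblast markers, also all detected, it was 181 to 610 and 344 to 605 CPM. Neither difference passed an exact two-sided permutation test (adjusted p = 0.64 for each over 8 marker lists, where the smallest unadjusted p possible is 0.0286 and a single list with fully separated groups would reach only 0.229 after adjustment, so the test could hardly pass). Single markers did change: LUM, a fibroblast proteoglycan gene, rose from 33 counts in the 4 parental tumours to 1053 in the 4 knockout tumours (edgeR adjusted p = 1.98e-06), while the fibroblast sum was made up mostly of COL1A1, and VWF, an endothelial gene, fell from 172 to 32 counts (adjusted p = 0.00041). Their part in the results below was not tested. In bulk tumours a lower share of a cell type and less RNA per cell cannot be told apart.

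Most of the list stood higher in knockout tumours. Of 29 members, 17 (58.6%) rose and 1 fell at an adjusted p under 0.05 by edgeR's quasi-likelihood test over all genes, where 13.0% of all genes tested were called higher and 14.1% lower (27.0% in either direction). Among the 9918 genes at least as abundant as the lowest member, 11.4% were called higher. The median log2 fold change of the members was 0.43, against 0.00 for all genes tested. The 4 knockout values lay outside the range of the 4 parental values for 16 members, 14 of them above and 2 below, where 29.3% of all genes tested had groups that did not overlap. Since the list was drawn up with this comparison in view, nothing is read from the distance between these shares.

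**Figure D1:**
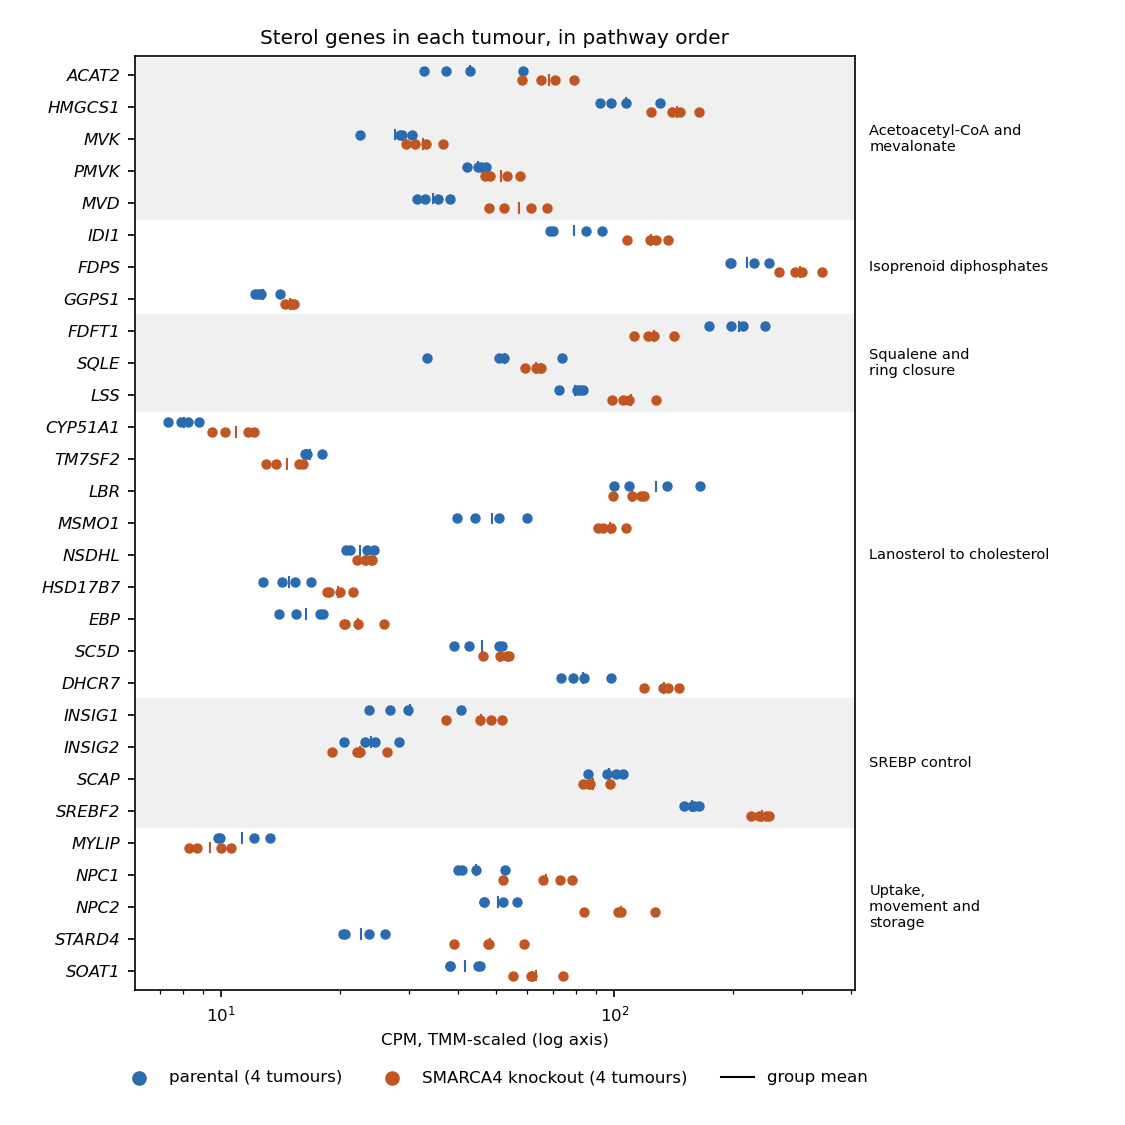
Level of each of the 29 genes in each tumour, in TMM-scaled CPM on a log axis, ordered along the pathway; points are tumours (4 parental in blue, 4 knockout in orange) and short vertical lines are group means. Knockout tumours sit above parental tumours without overlap for 14 genes, among them MSMO1, SREBF2, NPC2 and STARD4, and below them for FDFT1 and TM7SF2.

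The first enzymes make mevalonate and prepare it for use. ACAT2, the cytosolic thiolase that joins acetyl-CoA units, was at 43.0, 32.7, 37.4 and 58.7 CPM in parental replicates 1 to 4 and at 58.1, 65.1, 70.6 and 79.1 CPM in knockout replicates 1 to 4. The groups overlapped only where the highest parental tumour, replicate 4, lay just above the lowest knockout tumour. ACAT2 rose by 0.67 on the log2 scale (SE 0.167, edgeR adjusted p = 0.012); its exons overlap those of SOD2 and TCP1 on the other strand (26.5% and 9.23% of its exon bases), and whether counting used the strand is not given in the sources used here.

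HMGCS1, the synthase that makes HMG-CoA, was at 107, 91.9, 98.2 and 131 CPM in parental and 124, 164, 147 and 140 CPM in knockout tumours. Parental replicate 4 again reached into the knockout range. HMGCS1 rose by 0.43 (SE 0.123, edgeR adjusted p = 0.024), and the call was lost when any of 5 tumours was left out: parental replicate 1, 2 or 3 or knockout replicate 2 or 3 (adjusted p 0.0511 to 0.0758 and log2 fold changes 0.36 to 0.42 in those 5 fits).

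The kinases that phosphorylate mevalonate showed smaller differences. MVK (22.5 to 30.6 CPM in parental, 29.5 to 36.7 in knockout tumours) had a log2 fold change of 0.24 with a 95% interval of -0.01 to 0.49, and PMVK (42.3 to 47.1 and 47.0 to 57.7 CPM) one of 0.20, interval -0.00 to 0.39; neither was called (edgeR adjusted p = 0.147 and 0.133). MVD, which decarboxylates the product to isopentenyl diphosphate, was at 35.6, 31.5, 38.3 and 32.9 CPM in parental and 48.0, 61.3, 52.3 and 67.3 CPM in knockout tumours. Every knockout tumour exceeded every parental one, and MVD rose by 0.73 (SE 0.118, edgeR adjusted p = 0.000877), the largest difference among these 5 enzymes.

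Isoprenoid diphosphates feed sterols, ubiquinone, dolichol and protein prenylation. IDI1, the isomerase at their entry, was at 84.6, 68.6, 69.8 and 93.0 CPM in parental and 108, 137, 123 and 128 CPM in knockout tumours, with no overlap, and rose by 0.65 (SE 0.117, edgeR adjusted p = 0.00175). FDPS, which makes farnesyl diphosphate, was at 226, 197, 198 and 248 CPM against 262, 288, 300 and 338 CPM, again without overlap (log2 fold change 0.45, SE 0.107, edgeR adjusted p = 0.00925). GGPS1, which extends farnesyl to geranylgeranyl diphosphate and so leads away from sterols, lay at 12.2 to 14.1 CPM in parental and 14.5 to 15.3 CPM in knockout tumours. Its log2 fold change of 0.23 (95% interval 0.01 to 0.44) was not called over all genes (edgeR adjusted p = 0.111), although the groups did not overlap. GGPS1 shares 37.3% of its exon bases with TBCE on the same strand in GENCODE 29, so its count is uncertain.

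FDFT1, squalene synthase, was the exception. This enzyme joins farnesyl diphosphate into squalene, the first step committed to sterols, and it was the only member that fell. FDFT1 was at 198, 174, 212 and 242 CPM in parental replicates 1 to 4 and at 112, 126, 122 and 142 CPM in knockout replicates 1 to 4. The lowest parental tumour exceeded the highest knockout tumour, and FDFT1 fell by 0.72 on the log2 scale (SE 0.113, 95% interval -0.96 to -0.47, edgeR adjusted p = 0.000734), to 0.61 of its parental level. Leaving out 1 tumour at a time gave -0.79 to -0.64.

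FDFT1 lies on the short arm of chromosome 8 (11795573 to 11839309, plus strand; GENCODE 29, GRCh38), and its neighbours were also lower. Of the 20 nearest tested genes, the farthest 3409 kb away, 19 had a negative fold change and 12 were called lower, with none called higher, and their log2 fold changes had a median of -0.69. NEIL2, a DNA glycosylase gene 25.9 kb before the start of FDFT1, had a log2 fold change of -0.79, and CTSB, a lysosomal protease gene 73.9 kb after it, one of -0.53. For the other 28 members the median of the 20 nearest genes ran from -0.39 (TM7SF2) to 0.46 (SC5D). Whether the DNA of this region differs between the groups was not measured.

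**Figure D2:**
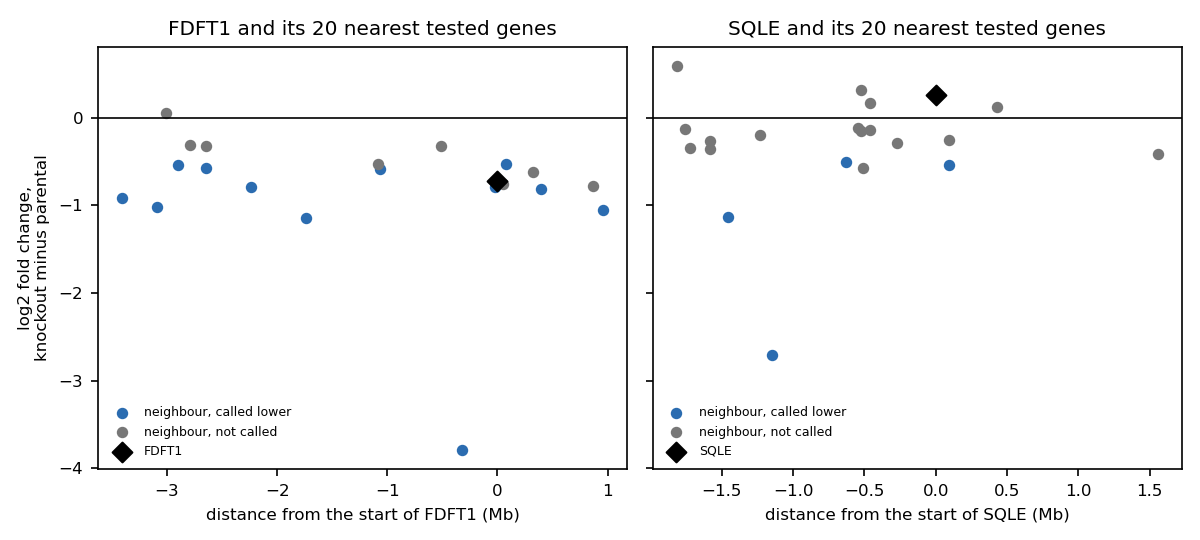
Log2 fold change (knockout minus parental) of FDFT1 and SQLE (black diamonds) and of the 20 tested genes nearest to each on chromosome 8, against the distance between gene starts in Mb; blue points were called lower and grey points were not called. Around FDFT1 19 of 20 neighbours lie below 0, around SQLE 16 of 20, while SQLE itself lies above 0.

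SQLE, squalene epoxidase, a rate-controlling step after squalene, lies on the long arm of the same chromosome (124998497 to 125022283). It was at 52.5, 33.3, 50.9 and 73.7 CPM in parental and 59.4, 63.1, 64.8 and 65.2 CPM in knockout tumours. Parental tumours spread widely, with a coefficient of variation of 31.4%, against 4.17% in knockout tumours, and their range enclosed all knockout values. The log2 fold change of 0.26 was not called (95% interval -0.14 to 0.67, edgeR adjusted p = 0.327), and without parental replicate 4 it was 0.46 with a call (adjusted p = 0.0393). LSS, which closes the sterol rings to give lanosterol, was at 81.7, 72.2, 80.4 and 83.1 CPM against 98.7, 109, 105 and 128 CPM and rose by 0.47 (SE 0.0957, edgeR adjusted p = 0.00366), with no overlap.

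From lanosterol to cholesterol 9 members act, of which 5 rose and none fell. MSMO1, the oxidase that starts removal of the methyl groups at carbon 4, was at 50.9, 39.7, 44.1 and 60.0 CPM in parental and 90.8, 107, 98.0 and 93.4 CPM in knockout tumours. MSMO1 rose 2.0-fold, or by 1.00 on the log2 scale (SE 0.123, edgeR adjusted p = 0.00014), the largest among the 20 enzymes, and no tumour crossed between groups. The enzymes that complete this demethylation differed from it in size: HSD17B7, the ketoreductase, rose by 0.41 (12.8 to 16.9 against 18.6 to 21.7 CPM, edgeR adjusted p = 0.0185, and 0.0579 without parental replicate 1). NSDHL, the decarboxylating dehydrogenase, was at 20.8 to 24.5 and 22.2 to 24.2 CPM, a log2 fold change of 0.06 with an interval of -0.14 to 0.26.

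DHCR7, the reductase of the last step, was at 83.6, 73.2, 78.6 and 97.9 CPM in parental and 119, 133, 137 and 146 CPM in knockout tumours. It rose by 0.68 (SE 0.105, edgeR adjusted p = 0.000611) without overlap. EBP, the isomerase before it, rose by 0.45 (16.4 ± 1.94 against 22.3 ± 2.54 CPM, SD, n = 4 each, without overlap, edgeR adjusted p = 0.0167), whereas SC5D, the desaturase between them, had a log2 fold change of 0.15 that was not called (39.2 to 51.8 against 46.2 to 53.8 CPM, adjusted p = 0.339).

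CYP51A1, the demethylase that acts on lanosterol first, was at 8.79, 7.90, 7.31 and 8.24 CPM in parental and 9.47, 11.7, 12.1 and 10.2 CPM in knockout tumours. The groups did not overlap and CYP51A1 rose by 0.43 (SE 0.126, edgeR adjusted p = 0.0263), but the call was lost without parental replicate 3 (adjusted p = 0.0651), knockout replicate 2 (0.0761) or knockout replicate 3 (0.0834), and with no filter on low counts (0.0724). In GENCODE 29, 79.4% of its exon bases are shared with AC000120.2, a gene on the same strand that is listed at 0 counts in all tumours. Where reads in shared exons were set aside as ambiguous, the level of CYP51A1 would be understated; the counting options are not given in the sources used here.

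The next reduction can be done by TM7SF2 or LBR, neither of which was called. TM7SF2 was at 16.4, 18.0, 16.3 and 16.5 CPM in parental and 13.8, 13.0, 16.1 and 15.8 CPM in knockout tumours. All knockout values were below all parental values, but the log2 fold change of -0.19 was not called (95% interval -0.43 to 0.04, edgeR adjusted p = 0.208). LBR, which also anchors chromatin at the inner nuclear membrane, was at 136, 100, 109 and 165 CPM against 99.1, 117, 119 and 111 CPM (log2 fold change -0.20, interval -0.51 to 0.12, adjusted p = 0.354). Its value was -0.05 without parental replicate 4, the tumour with the highest level.

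**Figure D3:**
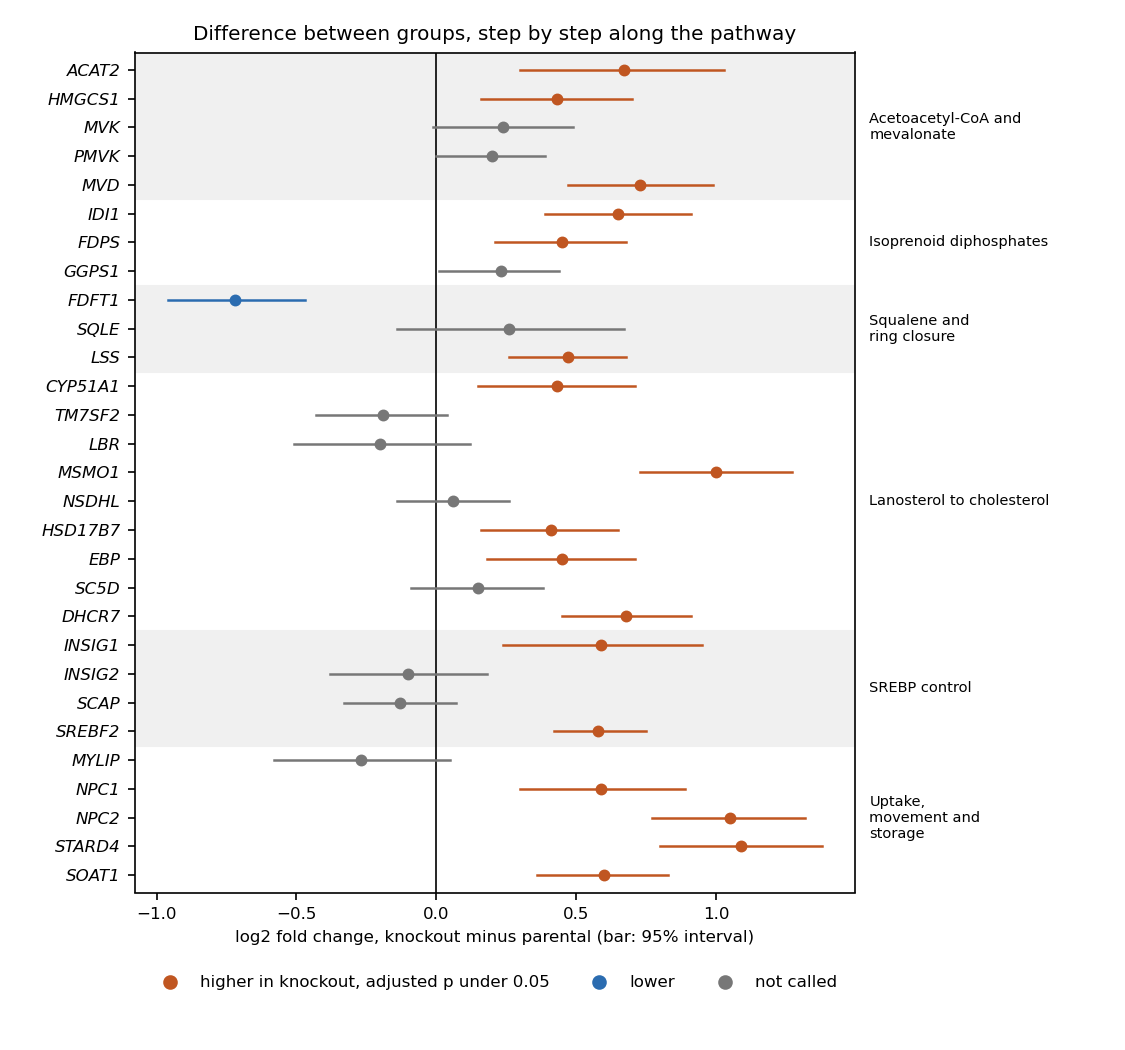
Log2 fold change (knockout minus parental) of each gene with its 95% interval from the edgeR fit, in pathway order; orange points were called higher, blue lower and grey not called. Of the 20 enzymes, 11 are orange and FDFT1 alone is blue, at -0.72.

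Among the genes of SREBP control, the transcription factor gene and one of its brakes were higher. SREBF2, which encodes SREBP-2 (chromosome 22, 41833079 to 41907308, plus strand), was at 159, 150, 164 and 158 CPM in parental and 234, 248, 243 and 223 CPM in knockout tumours. It was among the least variable members, with a coefficient of variation of 3.73% in parental and 4.55% in knockout tumours, and the gap between the groups was wider than the range of either. SREBF2 rose by 0.58 (SE 0.075, edgeR adjusted p = 0.000181), or 1.5-fold. INSIG1, the sterol-induced retention protein, was at 29.8, 23.8, 26.8 and 40.8 CPM against 37.4, 51.8, 45.5 and 48.5 CPM. Parental replicate 4 exceeded knockout replicate 1, so the groups overlapped; INSIG1 rose by 0.59 (SE 0.162, edgeR adjusted p = 0.0185), and the call was lost without parental replicate 1 (0.0503), parental replicate 3 (0.0501) or knockout replicate 2 (0.0578).

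INSIG2, the paralog of INSIG1, and SCAP, the escort of SREBP, were not called. INSIG2 lay at 20.5 to 28.3 CPM in parental and 19.1 to 26.4 CPM in knockout tumours (log2 fold change -0.10, 95% interval -0.38 to 0.18, edgeR adjusted p = 0.602). SCAP lay at 85.7 to 105 and 83.3 to 97.7 CPM (log2 fold change -0.13, interval -0.33 to 0.07, adjusted p = 0.315). Whether the changes of INSIG1 and INSIG2 differ from each other was not tested.

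The genes of sterol movement and storage gave the 2 largest fold changes of the list. STARD4, a soluble carrier that moves cholesterol between membranes, was at 23.7, 20.4, 20.7 and 26.1 CPM in parental and 47.6, 58.9, 47.9 and 39.2 CPM in knockout tumours, a 2.13-fold rise (log2 fold change 1.09, SE 0.132, edgeR adjusted p = 0.000124). NPC2, the soluble lysosomal protein that hands cholesterol to NPC1, was at 46.6, 56.6, 46.7 and 52.0 CPM against 127, 83.5, 102 and 104 CPM, a 2.06-fold rise (log2 fold change 1.05, SE 0.125, adjusted p = 0.00011). Neither gene overlapped between groups. Its membrane partner NPC1 was at 40.0, 52.7, 40.9 and 44.4 CPM and 78.2, 72.6, 66.0 and 52.1 CPM, and rose by 0.59 (SE 0.133, edgeR adjusted p = 0.00669), with knockout replicate 4 just under parental replicate 2.

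SOAT1, which esterifies cholesterol for storage, was at 38.2, 38.2, 45.1 and 45.4 CPM in parental and 61.2, 74.1, 61.7 and 55.3 CPM in knockout tumours, a rise of 0.60 without overlap (SE 0.109, edgeR adjusted p = 0.00189). MYLIP, a ubiquitin ligase that marks lipoprotein receptors for breakdown and thereby limits uptake, was at 9.93, 9.80, 13.3 and 12.1 CPM against 10.0, 8.66, 10.6 and 8.30 CPM. The MYLIP groups overlapped and its log2 fold change of -0.27 was not called (95% interval -0.58 to 0.05, adjusted p = 0.199).

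The 20 enzymes of synthesis were set beside the 5 genes of uptake, movement and storage. Those 5 genes include no lipoprotein receptor, and MYLIP, which limits uptake, entered with its sign unchanged. The measure within each tumour was the mean log2 difference from the parental mean. Over the 20 enzymes it was 0.06, -0.17, -0.07 and 0.18 in parental tumours, by replicate number, and 0.20, 0.35, 0.34 and 0.42 in knockout tumours. Over the 5 genes of uptake, movement and storage it was -0.10, -0.01, 0.00 and 0.10, and then 0.73, 0.66, 0.63 and 0.41. By these means, the order of the knockout tumours ran opposite ways at its ends. Replicate 1 was lowest for the enzymes and highest for the other set, and replicate 4 the reverse. In the other set, NPC1 and NPC2 were highest in knockout replicate 1, STARD4 and SOAT1 in replicate 2 and MYLIP in replicate 3. Whether the order differs between the sets was not tested. Knockout replicate 1 held the lowest value of its group for 15 of 20 enzymes, and knockout replicate 4 the highest for 11.

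Parental tumours differed from one another in the enzymes as well. Parental replicate 2 was lowest in its group for 14 of the 20 enzymes and parental replicate 4 highest for 12. The leukocyte and fibroblast sums were 75.8 and 610 CPM in parental replicate 2, the highest of that group, and 7.56 and 181 CPM in parental replicate 4, the lowest. In parental replicates 1 and 3 they were 13.3 and 351 CPM and 64.9 and 348 CPM. Whether these sums reflect other cell types is not known, and their part in the enzyme levels was not tested. Without parental replicate 2, 17 members were called, with HMGCS1 lost, and without parental replicate 4, 19, with SQLE gained.

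**Figure D4:**
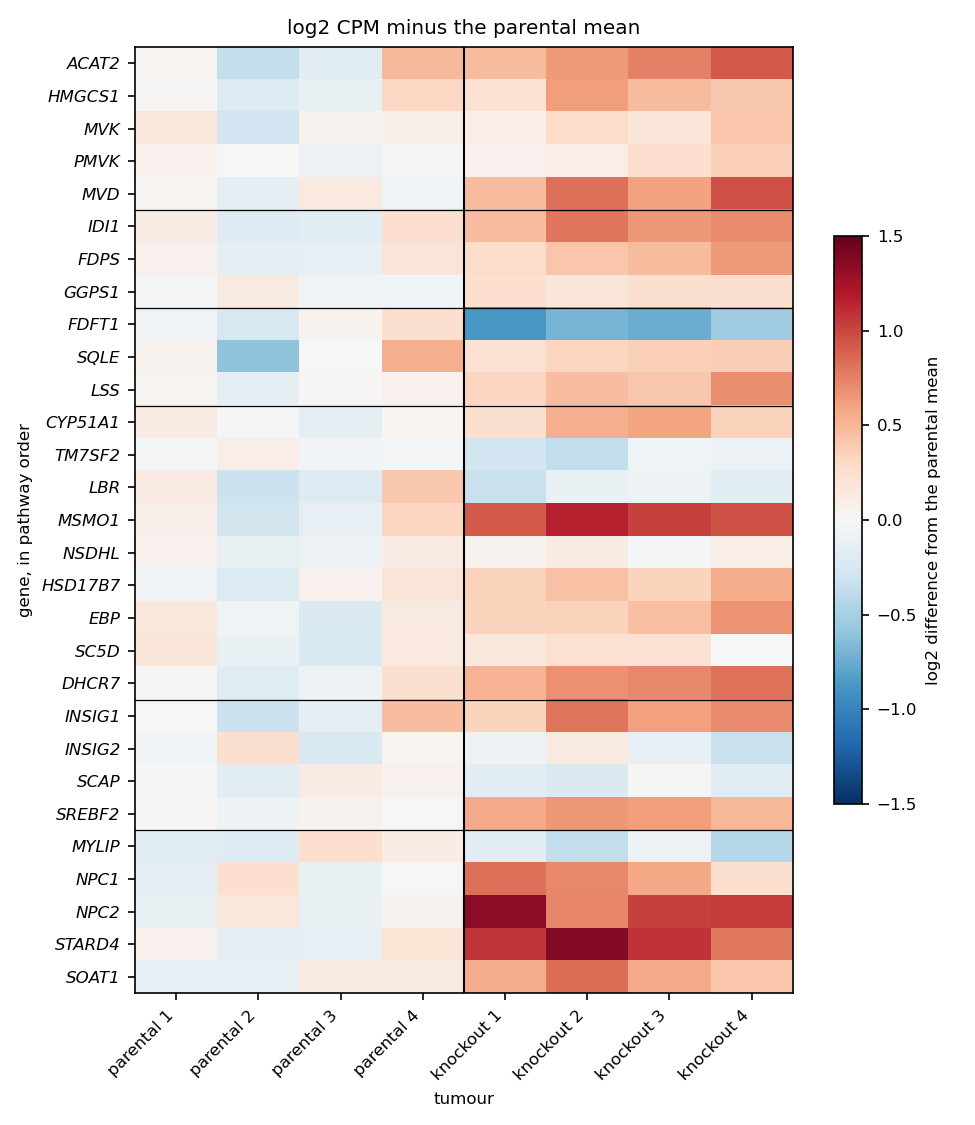
Difference of log2 CPM from the parental mean for each gene (rows, in pathway order) in each tumour (columns); red is higher and blue lower than the parental mean, and lines separate the roles. FDFT1, TM7SF2 and LBR are the enzymes that are blue in all 4 knockout tumours, and of them FDFT1 alone was called lower, and parental replicates 2 and 4 stand on opposite sides of the parental mean for most enzymes.

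Levels were compared between genes as CPM per kilobase of exon. In parental tumours FDPS was highest at 58.5 ± 6.57 and FDFT1 followed at 39.7 ± 5.45 CPM per kilobase (SD, n = 4). PMVK, at 35.2 ± 1.57, lay within the spread of FDFT1. In knockout tumours FDPS stood at 79.8 ± 8.54 and FDFT1 at 24.2 ± 2.41 CPM per kilobase (SD, n = 4), and FDFT1 had moved from rank 2 to rank 9 of 29. The enzyme that makes farnesyl diphosphate and the enzyme that commits it to squalene thus stood further apart in mean level in knockout than in parental tumours; the ratio was not tested. NPC2 moved from rank 8 to rank 3, at 37.9 ± 6.48, close to PMVK at 40.3 ± 3.85. CYP51A1 was lowest in both groups, at 2.25 ± 0.173 and 3.03 ± 0.342, with the limit on its count given above, and the length used is the union of all annotated exons, which overstates that of the main transcript for many genes.

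Other genes of sterol and related lipid metabolism were counted in the same fit. Of 77 such genes in 6 lists, 72 could be tested, with a median log2 fold change of -0.04. Of these 72, 10 (13.9%) rose and 13 fell, where 13.0% of all genes tested were called higher and 14.1% lower. CH25H, CYP27A1, CYP7B1, LRP2 and SOAT2 had 3 to 27 counts in all 8 tumours together and were not tested.

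Of 10 genes of SREBP processing and sterol-regulated degradation, 1 rose and 1 fell. RNF145, a sterol-responsive ubiquitin ligase of the endoplasmic reticulum, fell by 0.87 (306 to 329 CPM in parental, 159 to 192 in knockout tumours, edgeR adjusted p = 2.44e-05), and UBE2G2, a ubiquitin-conjugating enzyme of the same degradation system, rose by 0.39 (adjusted p = 0.00564). Of 7 electron donors and scaffolds of the sterol enzymes, 2 rose and 3 fell. CYB5B, the cytochrome b5 of the mitochondrial outer membrane, rose from 57.5 ± 3.42 to 209 ± 3.76 CPM (SD, n = 4 each, log2 fold change 1.86, adjusted p = 1.86e-07). CYB5A and PGRMC1, of the same list, fell by 0.49 and 0.41 (edgeR adjusted p = 0.0124 and 0.00986). POR, the reductase that supplies CYP51A1 and SQLE with electrons, fell by 0.73 (138 ± 13.2 to 83.3 ± 3.14 CPM, adjusted p = 0.000112). ERG28, the scaffold of the C4 demethylation enzymes, rose by 0.46 (adjusted p = 0.00297).

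Of 18 tested genes that use isoprenoids, none rose and 1 fell, with a median log2 fold change of -0.02. The gene that fell was SRD5A3, the polyprenol reductase of dolichol synthesis, at 92.0 to 158 CPM in parental and 43.9 to 63.1 CPM in knockout tumours (log2 fold change -1.18, SE 0.174, edgeR adjusted p = 0.000467). Fatty acid genes under SREBP control were split, with 3 higher, 3 lower and 8 not called. SCD, the stearoyl-CoA desaturase, rose from 718 ± 112 to 1579 ± 96.9 CPM (log2 fold change 1.14, adjusted p = 2.91e-05) and ACSS2, acetyl-CoA synthetase, rose by 0.96 (adjusted p = 6.37e-06), while ACSL3, which activates fatty acids, fell by 0.73 (adjusted p = 0.00241). SREBF1, which encodes SREBP-1 and is named here after its value was seen, was at 253 to 332 and 303 to 373 CPM, a log2 fold change of 0.25 that was not called (interval 0.01 to 0.48, adjusted p = 0.11).

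On the side of sterol efflux, none of the 9 LXR, efflux and oxysterol genes tested rose and 4 fell, with a median log2 fold change of -0.44. PLTP, the phospholipid transfer protein, fell from 65.3 ± 7.07 to 19.7 ± 2.01 CPM (SD, n = 4 each; log2 fold change -1.73, edgeR adjusted p = 1.46e-06). NR1H3, which encodes LXR alpha, fell by 0.53 (adjusted p = 0.012). ABCA1, the pump that loads cholesterol onto apolipoproteins, named after its value was seen, was at 22.9 to 44.3 CPM in parental and 9.65 to 20.3 CPM in knockout tumours and fell by 0.95 (adjusted p = 0.0136). ABCG1 and SCARB1, of the same list, were not called (log2 fold changes -0.15 and -0.16, edgeR adjusted p = 0.474 and 0.219). MYLIP, also an LXR target, is described above.

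Of the 14 tested genes for other lipoprotein receptors and sterol movement, 4 rose and 1 fell. GRAMD1B and GRAMD1A, which encode proteins that move cholesterol from the plasma membrane to the endoplasmic reticulum, rose from 94.3 ± 7.70 to 362 ± 25.3 CPM and from 71.1 ± 4.12 to 244 ± 35.3 CPM (SD, n = 4 each; log2 fold changes 1.94 and 1.78, edgeR adjusted p = 3.74e-07 and 1.17e-06). Knockout tumours reached 334 to 387 CPM for GRAMD1B, far above the parental range of 83.5 to 101 CPM. The third family member GRAMD1C lay at a log2 fold change of 0.05 (adjusted p = 0.816). LRP8, a lipoprotein receptor, rose by 0.75 (90.8 to 109 against 146 to 172 CPM, adjusted p = 0.000119).

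**Figure D5:**
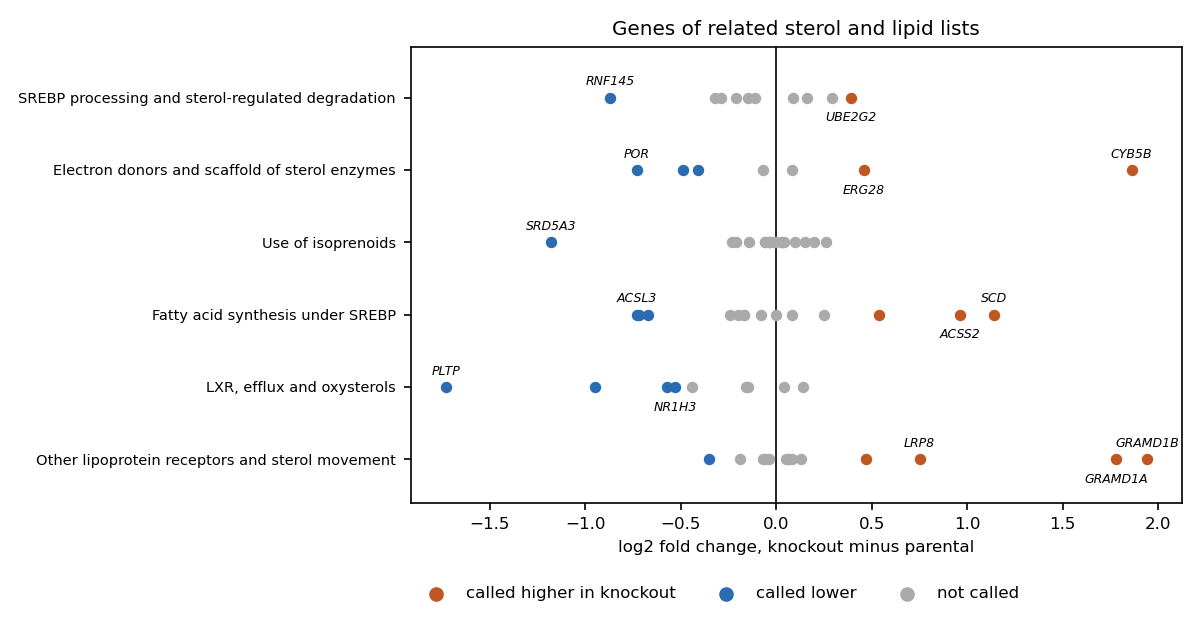
Log2 fold change (knockout minus parental) of 72 genes in 6 related lists; orange points were called higher, blue lower and grey not called, and the called genes named by the rule are labelled, up to 3 in each list. GRAMD1B, CYB5B and GRAMD1A lie farthest right and PLTP farthest left.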

How the data were processed

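Per the labels, RNA of 8 tumours was isolated with a column kit. The authors deposited unnormalised counts of reads, 1 value for each gene symbol. The submitters' processing notes name TopHat2 2.1.1, HTSeq 0.11.0 and build hg38. Annotation, strandedness, counting options and any removal of mouse reads are not given in the sources used here. The 5 summary lines of each file were left out, and 79.1% to 85.2% of reads were assigned to genes.

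Counts were fitted with edgeR 4.0.16 in R 4.3.3: filterByExpr (minimum count 10, minimum total 15), TMM scaling, quasi-likelihood F-test of knockout against parental without covariates, Benjamini-Hochberg adjustment over 16219 genes, called at an adjusted p under 0.05. The SE is the log2 fold change divided by the root of F, and intervals (95%) follow from it. The fit was tested on simulated data. Every 2 libraries differed by more than counting noise (chi-square per degree of freedom at least 8.21). GENCODE 29 placed 15901 tested genes by symbol. The members and lists were chosen with earlier results of these data known. All members are named, and of each related list up to 3 called genes with the smallest adjusted p, of which 1 is counted but not reported here; GRAMD1C, SREBF1, ABCA1, NEIL2, CTSB, LUM, VWF, FGB and the genes with few counts were named after their values were seen. The marker lists were lung epithelium, leukocytes, fibroblasts, endothelium, skeletal muscle, adipocytes, erythroid cells and hepatocytes; the closing section gives those not in the report. Alternatives were DESeq2 1.42.0, limma-voom (limma 3.58.1), 3 scalings, 2 filters, library sizes without the 10 most abundant genes, the replicate number as a block, and leaving out each tumour.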

Additional observations from a re-analysis of the deposited data

Results flagged for a closer look

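TM7SF2 stood at 18.0 CPM in parental replicate 2, while the other parental tumours lay at 16.3 to 16.5 CPM, so 1 tumour lay far from the rest of its group relative to the group's range. This was the only one of 58 sets of 4 values (29 genes in 2 groups) that stood apart in this way (1.72%), and chance gives about 1 in 20.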

How the results depend on the processing

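The number of members called ran from 17 to 18 over the 9 alternatives on all 8 tumours and from 15 to 19 when 1 tumour was left out, always with FDFT1 as the only one lower. All 29 members kept the sign of their fold change in all 17 alternatives. Of the 18 called members, 14 stayed called throughout; HMGCS1, CYP51A1, HSD17B7 and INSIG1 did not, and SQLE gained a call without parental replicate 4. Changed genes over the whole table ran from 3871 to 4902 on all tumours and from 3501 to 4721 with 1 left out, and called genes of the related lists from 23 to 25 and from 22 to 24. The replicate block gave 3871 changed genes, 17 called members and 23 called genes of the related lists; CYP51A1 had an adjusted p of 0.0712 with the block. Tumours share only a replicate number: correlations of same-numbered tumours' deviations ran from -0.223 to 0.0918, and 0 of 8 tumours correlated best with their own number. The median of all genes moved by less than 0.1 on the log2 scale under each scaling (0.041 with upper-quartile scaling). Counting the promoter letters in the whole 300-base window gave the same 1, 20 and 24 members. Depth limits the least abundant members: CYP51A1 had as few as 162 counts in a tumour, where counting error is about as large as the spread between tumours.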

Other observations

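The 20 nearest tested genes were also examined for other members. Around TM7SF2 on chromosome 11, 17 of the 20 nearest tested genes had a negative fold change and 9 were called lower, with a median log2 fold change of -0.39, beside -0.19 for TM7SF2 itself. Around NSDHL on chromosome X the median was -0.28, with 7 genes called lower and none higher, beside 0.06 for NSDHL. Around SC5D on another part of chromosome 11 the median was 0.46, with 9 called higher and 2 lower, beside 0.15 for SC5D. INSIG1, at 0.59, lies among genes with a median of 0.20, of which 2 of 20 were negative and 1 was called higher.

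Differences in the sums over the other marker lists did not pass exact two-sided permutation tests (adjusted p 0.64 to 0.8 over 8 lists, where 1 fully separated list alone could reach only 0.229). The sums were 7490 to 8800 CPM in parental and 6590 to 7960 CPM in knockout tumours for lung epithelium, where KRT7 and KRT19 were called lower. For hepatocytes they were 839 to 1610 and 795 to 1230 CPM. That sum was made up almost wholly of SERPINA1 (95585 counts in parental and 64326 in knockout tumours) and FGB (12074 and 22171). FGB was called higher and SERPINA1 was not called (edgeR adjusted p = 0.00948 and 0.0745). ALB, APOA1 and APOA2 had 1 to 6 counts each in either group. The sums were 7.34 to 18.0 and 8.67 to 15.2 CPM for endothelium, and 0.207 to 34.4 and 0.146 to 15.8 CPM for skeletal muscle. Adipocyte markers summed to at most 1.27 CPM and erythroid markers to at most 0.0933 CPM in any tumour. ADIPOQ, HBA2 and TTR had 0 counts in all 8 tumours.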
